A study of Homo sapiens with 24 samples.

Results

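The RNAs described here are 200 abundant transcripts that carried the fewest ribosome footprints for their RNA level in the parental line of the study, MDA-MB-231, which was derived from a human breast cancer. They were taken from the 6142 transcripts with a mean parental RNA value of at least 1000, out of 11252 in the table of that experiment, as those with the lowest translation efficiency. Efficiency is the log2 footprint value minus the log2 RNA value, with 1 added to each mean. The parental values chose these RNAs, so their low parental efficiency is a description and not a finding. Ribosome profiling (Ribo-seq) and RNA-seq were each run on 4 groups of cells, with 3 replicates per group and assay. Parental cells were labelled poorly metastatic, and LM2 cells, of the same line, highly metastatic to the lungs. In a separate experiment, cells with a control guide (sgCTRL) and cells labelled as an HNRNPC knockdown (sgHNRNPC), both labelled poorly metastatic, were profiled in the same way. All groups were grown in the same serum-containing medium, and cells were lysed with cycloheximide, a drug that stalls elongating ribosomes. The labels do not say whether a line was 1 clone, nor how the replicates were grown apart. The p-values thus reflect only how these samples varied, and that variation may be technical.

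Translation efficiency is the usual measure of how heavily an mRNA is loaded with ribosomes. As background, an RNA can carry few footprints when ribosomes rarely start on its main reading frame, when short upstream reading frames take them up, when the RNA stays in the nucleus, or when its coding part is short beside its untranslated parts. HNRNPC is a nuclear protein that binds uridine-rich stretches of pre-mRNA and acts in splicing and in the choice of polyadenylation sites. The tables list transcripts by Ensembl transcript ID. None of the 11396 IDs could be paired with a gene name in the reference tables used here, so the genes, their sequences, the level of HNRNPC itself and the markers of the cell line were not analysed here. The footprint and RNA values are not divided by length, so an efficiency compares a transcript with itself across cells better than it compares transcripts with each other.

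In parental cells the 200 RNAs made up 5.54 to 5.65% of the RNA signal in a library and 0.817 to 0.832% of the footprint signal. Their mean RNA values ran from 1023 to 201239 with a median of 3879, against a median of 2662 for the other 5942 abundant transcripts. Their mean footprint values ran from 0.826 to 864 with a median of 14.2, against 104 for the others. The low efficiencies were thus found at every RNA level, with 60 of the 200 at RNA values of 1000 to 2000, 45 at 2000 to 4000, 52 at 4000 to 8000 and 43 at 8000 or more. The plot of footprints against RNA shows them as the lower edge of the cloud.

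**Figure D1:**
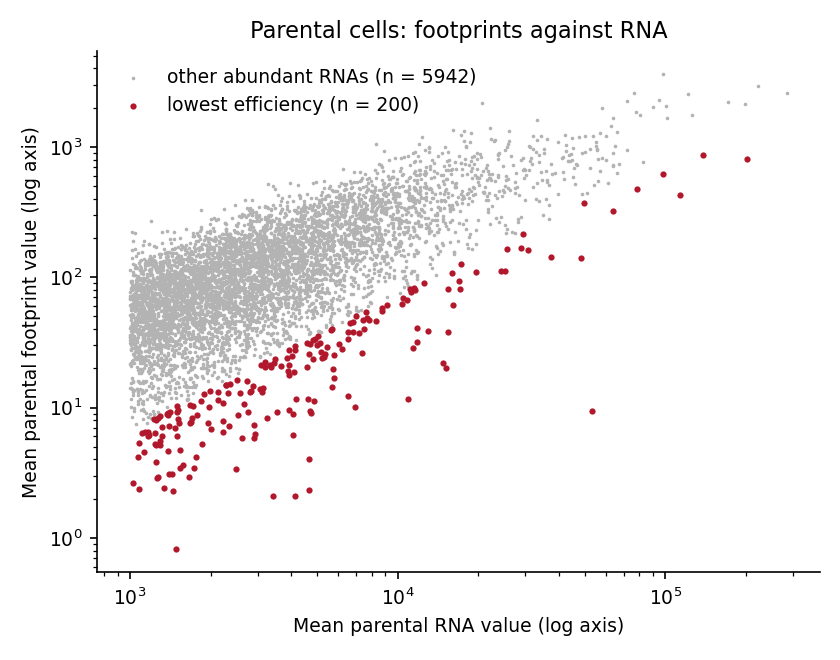
Mean footprint value against mean RNA value in parental cells, both on log axes, 1 point per transcript with a mean RNA value of at least 1000. The 200 RNAs of lowest efficiency (red) lie along the lower edge at all RNA levels, below the other 5942 (grey), as the rule that chose them requires.

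Parental efficiency of the 200 had a median of -7.54 on the log2 scale, against -4.76 for the other abundant transcripts. Most were close to the limit of the rule, with 141 between -8 and -7 and 47 between -9 and -8. Only 12 lay below -9. The lowest, at -12.33, stood apart from the next, at -10.46. That transcript had a mean RNA value of 53220 and a mean footprint value of 9.34 in parental cells. The last 2 RNAs inside the limit were at -7.066 and -7.065, and the first 2 outside at -7.064 and -7.063, so the limit does not mark a break in the values. The footprint values of the 200 were noisier than those of the others. The median SD of log2 footprints over parental replicates was 0.33, against 0.13 for the other abundant transcripts, while that of log2 RNA was 0.05 and 0.06.

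The control guide libraries had no part in the choice and belong to the other experiment. Of the 200 RNAs, 186 were listed there, and 174 had a control guide RNA value of at least 1000. The low efficiency recurred. Among the 5434 control guide transcripts at that RNA level, 123 of the 200 were again among the 200 lowest (61.5% of each list) and 170 were among the 400 lowest. The median rank was 114.5 and the highest was 490. None of the 186 reached the control guide median of -5.09, and the highest was at -6.77. Their median control guide efficiency was -7.93, against -5.01 for the other abundant transcripts listed. The transcript of lowest parental efficiency ranked 3 in control guide cells, at -10.46. In all 4 cell groups, 87 of the 200 were among the 200 lowest. The 14 RNAs not listed in the knockdown table had parental footprint values of 6.41 or less, with a median of 3.23. No listed transcript had a mean below 2 over the 6 footprint libraries of its table, so RNAs with even fewer footprints are outside both tables.

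**Figure D2:**
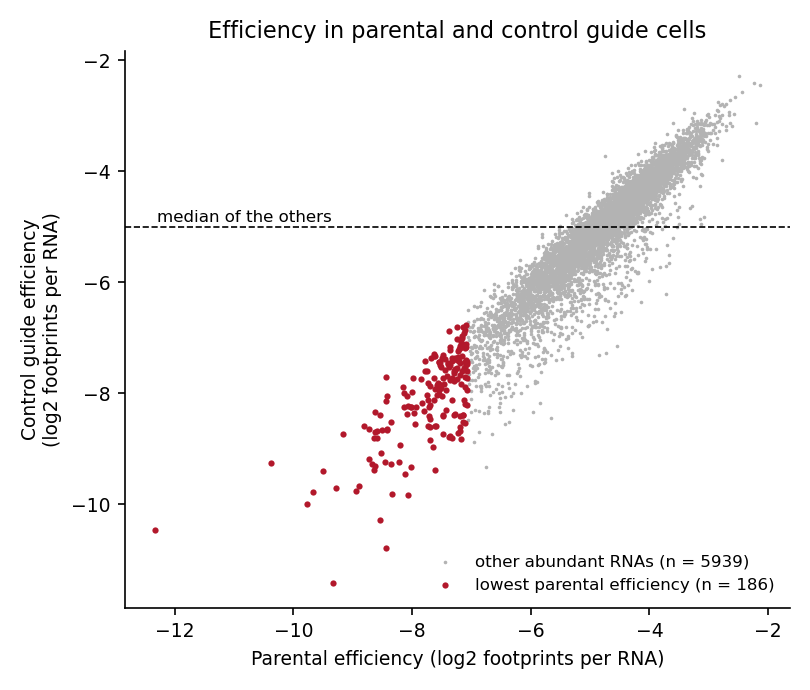
Efficiency in control guide cells against efficiency in parental cells (both log2 footprints per RNA), 1 point per transcript. The 186 low-efficiency RNAs listed in both tables (red) all lie below the dashed line, the control guide median of the 5939 other abundant transcripts (grey).

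The gap between the low-efficiency RNAs and the other abundant transcripts was seen in each of the 12 library pairs, each made of the footprints and RNA of 1 replicate number. In the parental pairs the rule that chose the RNAs requires it, so only the pairs of the other cell groups show that it recurs. The median efficiency of the low-efficiency RNAs minus that of the others was -2.79, -2.80 and -2.88 in the parental replicates and -2.76, -2.75 and -2.73 in the LM2 replicates. It was -3.03, -3.05 and -2.87 in the control guide replicates and -2.75, -2.72 and -2.75 in the knockdown replicates. The 3 knockdown values were all nearer to 0 than the 3 control guide values, without overlap. The LM2 values were also nearer to 0 than the parental values, but there the choice on parental values itself favours that direction. The experiments were normalized separately, so levels are compared within each.

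**Figure D3:**
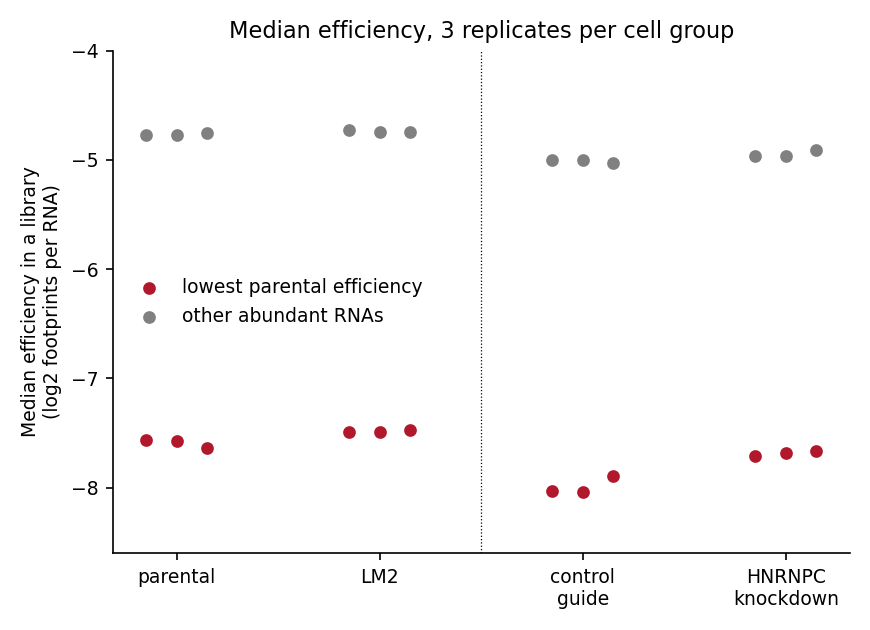
Median efficiency (log2 footprints per RNA) in each library pair, 3 points per cell group, for the low-efficiency RNAs (red) and the other abundant transcripts (grey). The dotted line parts the separately normalized experiments. Red knockdown points (-7.71 to -7.66) lie above red control guide points (-8.04 to -7.90). Grey knockdown points (-4.96 to -4.91) also lie above grey control guide points (-5.03 to -5.00), by less.

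In the HNRNPC knockdown the low-efficiency RNAs had a lower median RNA level, a median footprint change near 0 and a higher median efficiency. The median efficiency change of the 186 was 0.37 on the log2 scale (quartiles 0.02 and 0.61), against 0.09 for the 5939 other abundant transcripts and 0.10 for all 10767 tested. The change was above 0 for 141 of the 186 (75.8%) and for 61.9% of the other abundant transcripts. Efficiency rose for 16 of the 186 (8.60%) and fell for 4 (2.15%; limma, adjusted p under 0.05). Over all transcripts tested 2.58% were called higher and 1.2% lower, and over the other abundant transcripts 3.62% and 1.75%. The efficiency test pools the spread of RNA and footprints, with a variance trend on their mean level. The median SE of the efficiency change of the 186 was 0.28, below the 0.37 of their footprint change. For the other abundant transcripts these were 0.15 and 0.14. The test thus understates the spread of the low-efficiency RNAs, and their shares called cannot be compared directly with the others. All 20 calls had groups that do not overlap, but the share among all calls was not computed, so nothing is read from this. At an unadjusted p under 0.05 in limma, 68 of the 186 passed in either direction. So did 1429 of the 5939 other abundant transcripts and 2016 of all 10767 tested.

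The number of calls depended on the processing. The 16 rises and 4 falls became 8 and 4 after TMM scaling, 8 and 4 with the median change of all transcripts set to 0, and 6 and 5 after quantile normalization. With a pseudocount of 5 they became 35 and 6, with separate spreads for RNA and footprints 7 and 3, and without a variance trend 7 and 0 (limma; 5 falls at an unadjusted p under 0.05). Fits that dropped a library had fewer degrees of freedom. With control guide replicate 1 dropped the 16 rises became 9, and with replicate 2 dropped 10. With knockdown replicate 2 dropped they became 7, and with replicate 3 dropped 8. The 4 falls became 1, 0 and 1 when control guide replicate 1, 2 or 3 was dropped, and 0, 2 and 2 when knockdown replicate 1, 2 or 3 was. Where 0 passed, 7 and 8 were lower at an unadjusted p under 0.05 in limma. The median change of the low-efficiency RNAs minus that of the other abundant transcripts was 0.28 as deposited. It was above 0 in all 18 alternatives run on it, from 0.12 after quantile normalization to 0.33. Not all of these could change it. Setting the median change to 0, a fit without a variance trend and a replicate block leave this difference at 0.28 by construction.

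The medians were also compared at like RNA levels. At parental RNA values of 1000 to 2000 the median efficiency change was 0.41 for 50 low-efficiency RNAs and 0.11 for 2159 others. At 2000 to 4000 it was 0.50 for 43 and 0.09 for 1828. At 4000 to 8000 it was 0.37 for 50 and 0.08 for 1142, and at 8000 or more it was 0.29 for 43 and 0.04 for 810. The low-efficiency RNAs had the higher median in each of the 4 ranges, while their quartiles overlapped those of the others in each.

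The same was done at like footprint levels. At parental footprint values of 5 to 10 the median efficiency change was 0.48 for 49 low-efficiency RNAs, 0.08 for 19 other abundant transcripts and 0.20 for 801 transcripts with RNA under 1000. At 10 to 20 it was 0.35, 0.20 and 0.18 (36, 158 and 1097 transcripts). At 20 to 50 it was 0.40, 0.18 and 0.12 (53, 989 and 1491). At 50 or more, where 35 low-efficiency RNAs were far above the footprint floor of the table, it was 0.29, against 0.07 for 4773 and 0.07 for 596. The listing floor matters most for the lowest values. Of the 186 RNAs, 18 had a mean under 3 over the 6 footprint libraries, and such a transcript with few control guide footprints was listed only if it had more in the knockdown. The mean was below the floor of 2 in control guide cells for 9 of the 186, among them 1 of the 16 called higher in efficiency, and in knockdown cells for 4, none of them called.

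**Figure D4:**
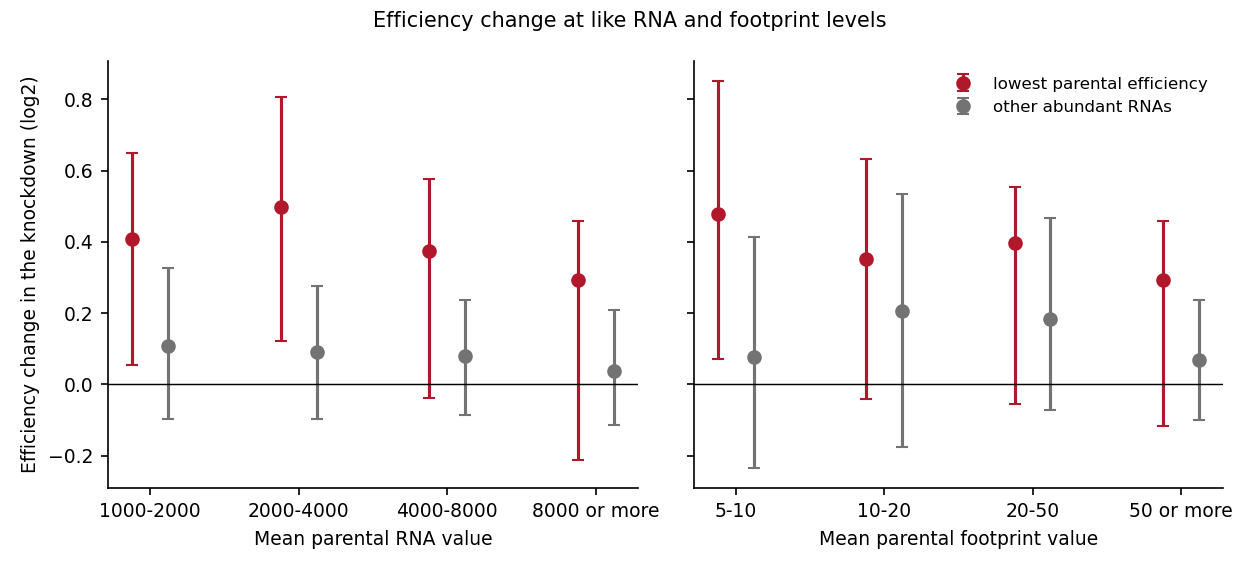
Efficiency change in the HNRNPC knockdown against control guide (log2) by parental RNA value (left) and parental footprint value (right). Points are medians over transcripts and bars run from the lower to the upper quartile, for the low-efficiency RNAs (red) and the other abundant transcripts (grey). The red median is the higher in every range, by 0.41 against 0.11 at RNA values of 1000 to 2000, and the bars overlap.

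RNA fell for 114 of the 186 (61.3%) and rose for 36 (19.4%), where 41.2% of all transcripts tested were called lower and 28.9% higher, and 2967 and 1588 of the 5939 other abundant transcripts. After quantile normalization 93 fell and 56 rose, and the shares over all transcripts under that setting are not given here. The median RNA change was -0.25, against -0.13 for the other abundant transcripts and -0.08 for all. It was the lower in each range of RNA level, at -0.17 against -0.10, -0.30 against -0.12, -0.25 against -0.15, and -0.39 against -0.19 from the lowest to the highest range. RNA was down by more than 2-fold for 15 of the 186 and up by more than 2-fold for 4. The counts were 326 and 77 of the 5939 other abundant transcripts, and 667 and 396 of all 10767. In lysates of many cells, less RNA per cell and fewer cells with the RNA cannot be told apart.

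Most footprint changes did not pass the test. Footprints fell for 24 of the 186 and rose for 12, where 16.0% of all transcripts tested were called lower and 13.4% higher. Their median footprint change was 0.03, against -0.07 for the other abundant transcripts. Among the 114 whose RNA fell, 24 (21.1%) also fell in footprints, 1 rose, and no call was made for the other 89. Among the other abundant transcripts whose RNA fell, footprints also fell for 42.1%. The test was less sensitive for the low-efficiency RNAs, with a median SE of the footprint change of 0.37 against 0.14, so the shares that passed cannot be compared directly. Of the 16 RNAs whose efficiency rose, RNA fell for 15, footprints fell for 4 and footprints rose for 1. Of the 215 other abundant transcripts whose efficiency rose, the counts were 169, 58 and 53. A fall in RNA raises efficiency by definition unless footprints fall as well.

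Among the abundant transcripts, ordered by parental efficiency, the median efficiency change in the knockdown was largest at the low end. It was 0.35 for ranks 1 to 100 and 0.40 for ranks 101 to 200. It was then 0.20 for ranks 201 to 400, 0.17 for ranks 401 to 800, 0.12 for ranks 801 to 1600, 0.09 for ranks 1601 to 3200 and 0.06 for the rest. The median RNA change went from -0.25 and -0.29 in the 2 lowest groups to -0.09 in the highest. The parental efficiency that sets this order comes from libraries outside the knockdown experiment. The order is a description across transcripts, which are not replicates.

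**Figure D5:**
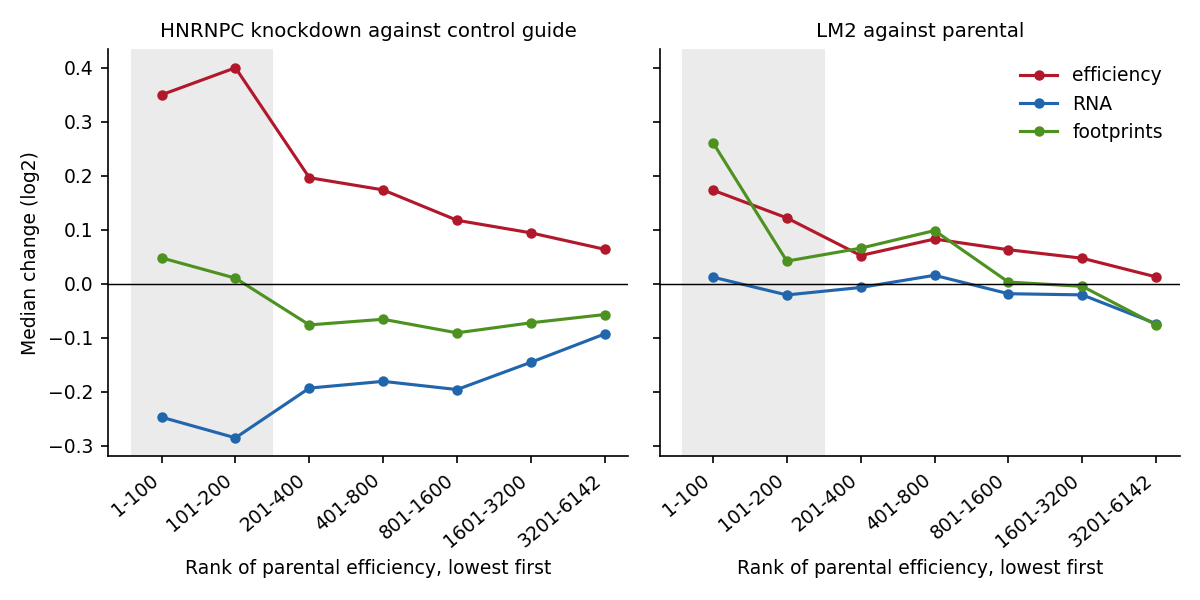
Median change (log2) of efficiency, RNA and footprints by rank of parental efficiency among 6142 abundant transcripts, in the HNRNPC knockdown (left) and in LM2 cells (right). The shaded ranks are the 200 low-efficiency RNAs. Knockdown efficiency changes go from 0.40 at ranks 101 to 200 to 0.06 at the highest ranks; in the LM2 panel parental libraries both set the ranks and enter the change.

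The RNAs called in the knockdown differed in what moved. The 2 largest rises and the 2 largest falls in efficiency among the 200 are given by ID. ENST00000347364 had footprint values of 8.14, 7.01 and 7.87 in control guide cells and 24.8, 19.7 and 21.3 in knockdown cells. Its RNA values were 2940, 2872 and 2914 and then 2339, 2537 and 2700. The footprint values of the groups were far apart, while RNA was slightly lower in all 3 knockdown libraries. Efficiency rose by 1.61 ± 0.17 (log2 change ± SE, limma adjusted p = 9.84e-05), footprints rose by 1.40 (adjusted p = 0.00105) and RNA fell by 0.21 (adjusted p = 0.00163). This rise passed in all 14 alternatives run on it.

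ENST00000418388 had very few footprints, with values of 1.27, 1.18 and 1.83 in control guide cells and 4.09, 3.12 and 2.61 in knockdown cells. Its RNA went from 2283, 2258 and 2109 to 1297, 1274 and 1141, without overlap, and fell by 0.84 (limma adjusted p = 6.39e-12). Its mean over the 6 footprint libraries was 2.35, just above the listing floor of 2, and its control guide mean of 1.43 was below that floor, so it was listed only through its knockdown values. Its efficiency change of 1.65 ± 0.28 (SE) is therefore given as a description and its test is not read. Footprints, with a change of 0.81, were not called (adjusted p = 0.297).

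ENST00000388948 had lower efficiency in the knockdown and higher efficiency in LM2 cells, where the choice on parental values itself favours a rise. Its footprint values were 12.1, 9.31 and 9.99 in control guide cells and 5.63, 7.79 and 1.28 in knockdown cells. Its RNA rose from 7798, 7904 and 7463 to 13186, 12558 and 13255. RNA was higher and footprints lower in all 3 knockdown libraries. Efficiency fell by 1.91 ± 0.44 (limma adjusted p = 0.0279). In LM2 cells its footprints were 49.0, 48.0 and 44.0, against 13.3, 28.5 and 18.3 in parental cells. Its RNA was 13590, 13488 and 13271 against 15243, 15165 and 15109. The efficiency change there was 1.43 ± 0.22. It is given as a description and its test is not read, since parental libraries chose this RNA and are the baseline of the change. The knockdown fall passed in 7 of 13 alternatives, with limma adjusted p from 0.000790 to 0.105. It was lost when control guide replicate 1, 2 or 3 was dropped (adjusted p = 0.0980, 0.0848 and 0.0947), when knockdown replicate 1 was (adjusted p = 0.0547), and without a variance trend (adjusted p = 0.105).

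ENST00000373218 and ENST00000388948 were the only RNAs of the 200 called in efficiency in both experiments. Neither LM2 call is read, since parental libraries chose both RNAs and are the baseline there. Footprints of ENST00000373218 were 20.7, 16.0 and 31.5 in control guide cells and 8.64, 10.9 and 5.18 in knockdown cells. Its RNA was 5623, 5583 and 5530 and then 4665, 4866 and 5309. The footprint groups do not overlap, although the control guide values spread widely. Efficiency fell by 1.18 ± 0.30 (limma adjusted p = 0.0404), close to the threshold. The fall passed in 6 of 14 alternatives, but dropping any 1 of the 6 replicates ended the call, with limma adjusted p from 0.0508 to 0.140, and so did a fit without a variance trend (adjusted p = 0.126). In LM2 cells its RNA was higher, at 10098, 10194 and 10467 against 5798, 5560 and 5752, and its footprints lower, at 21.7, 18.4 and 28.4 against 57.3, 30.5 and 32.9.

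The other calls in the knockdown included RNAs with many footprints. The most abundant RNA called higher in efficiency went from a mean RNA value of 100319 to 43384 and from a mean footprint value of 598 to 421, an efficiency change of 0.69 ± 0.15 (limma adjusted p = 0.0211). The transcript of lowest parental efficiency was called lower, by 0.95 ± 0.24 (limma adjusted p = 0.0393). Its RNA rose from 27361 to 47135 while its footprints, at means of 18.4 and 16.5, were not called (adjusted p = 0.692). RNA moved against efficiency in both, which is partly built in, since efficiency subtracts the log2 RNA value.

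In LM2 cells the 200 RNAs stayed low in efficiency and moved little as a group. Among the 6101 LM2 transcripts with an RNA value of at least 1000, 152 of the 200 were again among the 200 lowest (76.0% of each list) and 192 among the 400 lowest. None reached the LM2 median of -4.80. The median efficiency change was 0.13, against 0.03 for the other abundant transcripts. Efficiency was called higher for 5 of the 200 and lower for 2, where 0.293% and 0.844% of all 11252 transcripts were. RNA was called higher for 66 and lower for 67, against 23.0% and 28.6% of all. Footprints were called higher for 20 and lower for 14, against 8.56% and 12.4%. Nothing is read from these counts, since parental libraries chose the RNAs and enter the comparison.

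How far the choice by itself raises later values was measured within the parental replicates. The RNAs were chosen anew from 2 parental replicates and read in the one left out. The median difference of the left-out replicate from the mean of the other 2 was 0.08, 0.20 and 0.12 with replicate 1, 2 and 3 left out, against -0.0036, -0.02 and 0.02 for the other abundant transcripts. These shifts arose between replicates of the same cells. They come from a choice on 2 replicates, and the change of 0.13 in LM2 cells from a choice on 3. Their sizes thus cannot be compared directly. Set against the left-out replicate alone, the median LM2 change was 0.06, 0.05 and 0.05, against 0.02, 0.03 and 0.02 for the others. When the same rule was applied to control guide libraries instead, the 199 RNAs listed in the LM2 table had a median LM2 change of 0.02, against 0.03 for the others, and 51.8% were above 0. The higher median in LM2 cells was thus not seen with a choice that used no parental library.

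Parental libraries are not part of the knockdown experiment, so the knockdown change shares no library with the choice. The choice still favours RNAs with few footprints, whose footprint changes log2(value + 1) understates. Where RNA and footprints both fall, an understated footprint fall leaves the efficiency change higher. Beyond the comparison at like footprint levels, the part of this in the knockdown change was not tested. With the RNAs chosen on LM2 libraries, an alternative added after seeing the data, the median knockdown change was 0.37 for 182 RNAs, against 0.08 for the others. Of those chosen on LM2 libraries, 152 are among the 200, so the lists are not independent. Whether the knockdown changes move with footprint depth in reads was not tested, since the deposited footprint values do not give it. Control guide libraries held 1 to 5 zeros among the 186 RNAs and knockdown libraries 1 to 4, and 70 to 234 against 23 to 95 among all listed transcripts. The part of these zeros in the result was not tested.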

How the data were processed

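The authors deposited 1 table for each experiment, whose columns hold a normalized signal for every listed transcript in 12 libraries, 6 of footprints and 6 of RNA. Bowtie2 2.3.5, cutadapt 2.3, SAMtools and UMI-tools are named, with hg38 and without their roles, in the submitters' processing notes. Neither annotation nor counting rule nor scaling is stated, so values of overlapping or near-identical genes are uncertain. Signal per library summed to 23607900 to 34184300 for RNA and 669584 to 1134510 for footprints, and the depth in footprint reads is unknown. In the knockdown experiment RNA summed to 26071900 to 26617100 in control guide libraries and to 23607900 to 23863300 in knockdown libraries. Footprints there summed to 720575 to 753066 and to 669584 to 724090. All 24 columns were used.

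Values were taken as log2(value + 1), which understates changes of low values. All listed transcripts were tested, with no minimum on footprints, because the RNAs were chosen for low footprints. The test was limma 3.58.1 (R 4.3.3) with a variance trend on mean level, fitted to each assay alone for RNA and footprints and to the 12 libraries together for efficiency (the assay by group interaction), with two-sided p-values adjusted by Benjamini-Hochberg over 11252 or 10767 transcripts and a threshold of 0.05. "Higher", "rose" and "fell" for counts mean past that threshold. Tested on simulated data of 11252 transcripts (LM2), it found 19.4%, 61.2% and 93.9% of the efficiency changes set to 0.5, 1 and 2 (log2), and of 10767 transcripts (knockdown) 13.4%, 53.7% and 84.8%, with 7.2% and 3.81% of calls false. The changed transcripts were drawn at random from each whole list, so these shares may not hold for the low-efficiency RNAs, whose footprints were noisier. The members and lists were chosen with earlier results of these data known. Named transcripts were the 2 largest rises and 2 largest falls called in the knockdown with groups that do not overlap; IDs matched 0 gene names, so the gene lists were not used. Alternatives were another pseudocount (5), a minimum mean of 10, TMM scaling (own implementation), quantile normalization, median centring, no variance trend, a replicate block, leaving out each replicate, and other limits of the rule.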

Additional observations from a re-analysis of the deposited data

How the results depend on the processing

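Separate spreads for RNA and footprints and the choice on LM2 libraries were added after seeing the data; the other alternatives were planned. Replicate numbers did not pair the cell groups: same-numbered deviations correlated at -0.20 to 0.03 (RNA) and -0.02 to 0.01 (footprints) in the LM2 experiment, and at -0.02 to -0.0094 and -0.11 to 0.02 in the knockdown experiment. The cause of the shifts below was not tested. Shares over all transcripts under each alternative are not given here, so the shares below are not set against a background.

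In the knockdown, 8.60% of the low-efficiency RNAs were called higher in efficiency and 2.15% lower. The share higher was 18.8% with a pseudocount of 5, 4.30% after TMM scaling, 4.30% with the median change set to 0, 3.23% after quantile normalization, and 3.76% without a variance trend, with the replicate block and with separate spreads. With a minimum mean of 10, which kept 99 of the 186, it was 13.1%, and footprints were higher for 12.1% and lower for 23.2%. The share lower in efficiency was 0% without a variance trend and with the replicate block (limma; 5 and 9 at an unadjusted p under 0.05), 3.41% for the 100 lowest and 1.30% for the 400 lowest. The replicate block also ended the calls of ENST00000388948 (limma adjusted p = 0.0539) and ENST00000373218 (0.145). Footprints were lower for 5.38% without a variance trend, and RNA higher for 30.1% after quantile normalization. The difference in median efficiency change, 0.28, was 0.12 after quantile normalization and 0.16 for the 400 lowest. Leaving out a replicate gave 3.76 to 6.45% higher and 0 to 1.08% lower in efficiency, 17.7 to 19.4% and 59.1 to 62.4% higher and lower in RNA, 4.30 to 6.99% and 7.53 to 11.3% in footprints, and 0.24 to 0.33 for the difference.

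In LM2 cells, 2.5% were called higher in efficiency and 1% lower. The share higher was 4.5% with a pseudocount of 5, 1.5% after quantile normalization, with the replicate block and with separate spreads, 0.5% without a variance trend and 5% for the 100 lowest. The share lower was 1.5% with a minimum mean of 10 (133 RNAs), 2% after quantile normalization, 0.5% with the replicate block, 0.503% when chosen on control guide libraries, and 0% without a variance trend, for the 100 lowest and with a lower RNA minimum in the rule (7, 5 and 9 at an unadjusted p under 0.05 in limma). Footprints were higher for 4.5% and lower for 1% without a variance trend, and lower for 12.1% when chosen on control guide libraries. The difference in median efficiency change, 0.10, turned to -0.0115 after quantile normalization and to -0.0107 when chosen on control guide libraries. Leaving out a replicate gave 1 to 3% higher and 0.5 to 2.5% lower in efficiency, 28.5 to 32% and 31 to 33% in RNA, 6.5 to 11% and 4 to 7.5% in footprints, and 0.0887 to 0.153 for the difference.

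Of the 100 lowest in parental cells 58 were among the 100 lowest in control guide cells, and of the 400 lowest 277; leaving out a replicate gave 120 to 124 of 200.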
